A study of Homo sapiens with 10 samples.

Results

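Microtubule-associated proteins (MAPs), the stathmins and doublecortin were examined in SH-SY5Y, an established line of noradrenergic human neuroblastoma cells. The genes were MAP1A, MAP1B, MAP2, MAPT, MAP6, STMN1, STMN2, STMN3, STMN4 and DCX. This list was set by gene name, with earlier results of these data known. Of these 10 genes, 9 were measured, among 14232 named genes in all. A gene was read from a probe set annotated with exactly 1 gene symbol, and from the brightest such probe set where there were several. MAPT, which encodes tau, was left out because its probe set carries a second symbol.

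RNA was measured on Affymetrix exon arrays in 5 samples of cells stably transfected with wild-type SOD1 and in 5 samples of cells stably transfected with SOD1(G93A), a form of superoxide dismutase found in familial amyotrophic lateral sclerosis (ALS). Both lines were kept in G418, which selects for the transfected DNA; no removal of their own SOD1 gene is described. The sources used here give neither the construct's promoter, nor whether a line was 1 clone or a pool, nor whether the 5 samples of a group were separate cultures. All p-values rest on the spread of these samples, and that spread may be technical. An effect of the construct cannot be told apart from other differences between the lines. Wild-type samples are called 2, 8, 11, 14 and 17 and SOD1(G93A) samples 3, 9, 12, 15 and 18, as in their titles.

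Microtubules are polymers of tubulin that carry transport along axons and dendrites. MAPs bind the polymer along its length and stabilise or space it, whereas stathmins bind free tubulin dimers and favour disassembly, an activity that phosphorylation switches off. STMN1 is found in many dividing cells, while STMN2, STMN3 and STMN4 are neuronal relatives with a membrane anchor. STMN2 is known in ALS because its transcript is misprocessed when the RNA-binding protein TARDBP leaves the nucleus.

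All values below are log2 intensities. Array medians lay between 6.26 and 6.34 and lower quartiles between 3.84 and 3.89, and all 9 genes lay above the lower quartile in each of the 10 arrays. Arrays of the same group correlated at 0.990 to 0.994, and arrays of different groups at 0.986 to 0.990. The SOD1 probe set, which cannot separate mutant from wild-type transcripts, read 9.78 ± 0.13 in wild-type and 9.55 ± 0.09 in SOD1(G93A) samples (SD, n = 5 each; limma, adjusted p = 0.107). Its log2 fold change, SOD1(G93A) minus wild-type, was −0.23 (95% interval −0.39 to −0.06). An exact 2-sided permutation test, without adjustment, gave p = 0.0159. Of 10 measured markers of noradrenergic neuroblastoma, 9 lay above the array medians in both groups; TH, tyrosine hydroxylase, did not. Of 11 immune and endothelial markers, 0 were called between the groups. Of these 11, 6 lay below the lower quartile in both groups, among them PTPRC, the pan-leukocyte marker, at 2.18 and 2.13. CD68 alone lay above the array medians in both groups, at 6.64 in wild-type and 6.72 in SOD1(G93A) samples.

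STMN4 was higher and MAP2 was lower in the SOD1(G93A) line, and the other 7 measured genes were not called. A gene was called at a Benjamini-Hochberg adjusted p of 0.05 or less in limma, fitted over all 22011 probe sets. By this rule 9.60% of all named genes were called, 4.03% higher and 5.57% lower, against 1 of 9 in each direction here. The groups did not overlap in 2 of the 9 genes, STMN4 and MAP2, and in 11.4% of all named genes. The median log2 fold change of the 9 genes, SOD1(G93A) minus wild-type throughout, was −0.04, and that of all named genes was −0.0043. In bulk RNA, fewer cells of a type and less RNA per cell cannot be told apart.

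**Figure D1:**
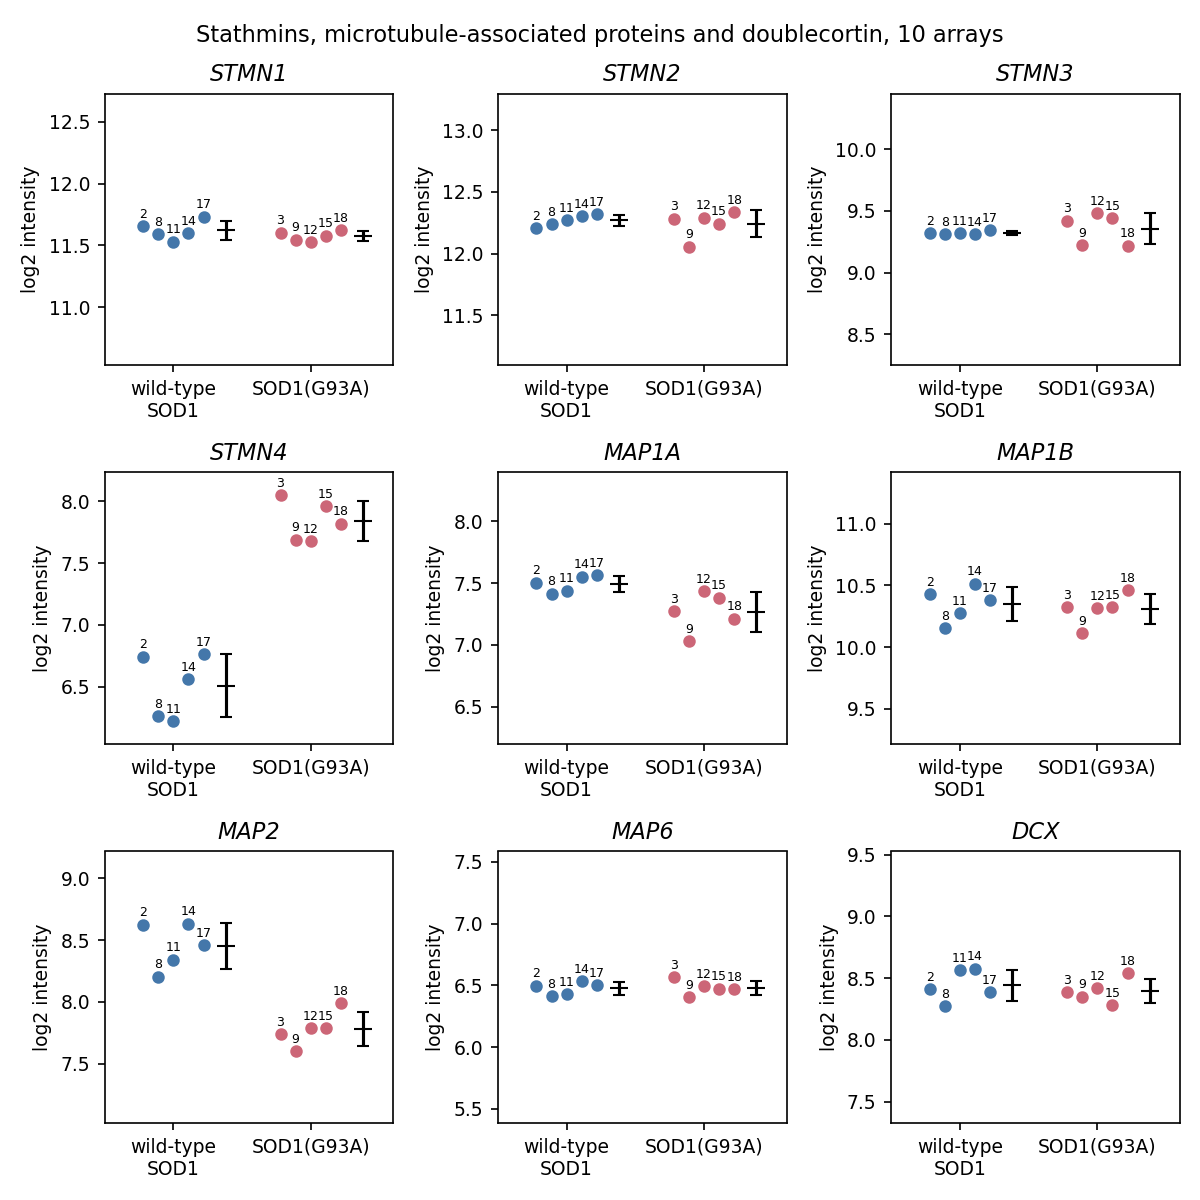
Log2 intensity of the 9 measured genes (y axis, 1 panel per gene, each spanning the same range of log2 units) in each of 10 arrays; points carry the sample number, and bars show the mean ± SD of 5 wild-type (blue) or 5 SOD1(G93A) samples (red). In the STMN4 panel all red points lie above all blue ones, in the MAP2 panel all lie below, and in the other panels the groups overlap.

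Among the stathmins, STMN4 moved and its relatives did not pass the test. STMN4, also known as RB3, read 6.74, 6.26, 6.22, 6.56 and 6.76 in wild-type samples 2, 8, 11, 14 and 17. In SOD1(G93A) samples 3, 9, 12, 15 and 18 it read 8.05, 7.69, 7.68, 7.96 and 7.82. The lowest SOD1(G93A) sample, 12, thus lay well above the highest wild-type sample, 17. The mean rose from 6.51 ± 0.26 to 7.84 ± 0.16 (SD, n = 5 each), a log2 fold change of 1.33 (SE 0.13, 95% interval 1.05 to 1.61) or 2.52-fold (limma, adjusted p = 6.33e-05). It was past the 2-fold threshold that the labels state, which 1.18% of all named genes passed together with the adjusted p, and it ranked 101 of 14232 by the size of its change.

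STMN2, also known as SCG10, acts in the growth cone and in the regrowth of axons. Its wild-type values were 12.21, 12.24, 12.27, 12.30 and 12.32 in the order of the sample numbers above, and its SOD1(G93A) values were 12.28, 12.05, 12.29, 12.24 and 12.34. Sample 9 alone lay below the wild-type range, and sample 18 lay just above it. The log2 fold change was −0.03 (SE 0.06, 95% interval −0.16 to 0.11; limma, adjusted p = 0.889).

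STMN1, the founding member and a protein of dividing cells, read 11.66, 11.59, 11.53, 11.60 and 11.73 in the wild-type samples and 11.60, 11.55, 11.53, 11.58 and 11.63 in the SOD1(G93A) samples. The groups lay over each other, with a log2 fold change of −0.04 (SE 0.05, 95% interval −0.16 to 0.07; limma, adjusted p = 0.747). A second, dim STMN1 probe set read 4.42 ± 0.07 and 4.41 ± 0.11 (SD, n = 5 each; limma, adjusted p = 0.945). Beside STMN1, 7 of 18 genes of mitosis fell and 0 rose (median −0.29), against 5.57% and 4.03% of all named genes. They included CENPA, the centromeric histone, at −0.77, which lies on chromosome 2 between SH3YL1 and ACYP2, where 101 of 201 named genes fell; of the 17 mitosis genes outside that stretch 6 fell (median −0.28). Others were the proliferation marker MKI67 at −0.47 and the kinetochore genes CENPF at −0.46 and CENPE at −0.43. The mitosis count was 4 when SOD1(G93A) sample 3 or 9 or wild-type sample 14 was left out, and leaving out any of these, or wild-type sample 2, ended the CENPF call (limma, adjusted p up to 0.0662).

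STMN3, also known as SCLIP, is another neuronal, membrane-bound stathmin. Its wild-type samples read 9.32, 9.31, 9.32, 9.31 and 9.35, and its SOD1(G93A) samples 9.42, 9.22, 9.48, 9.44 and 9.22. Of the latter, 3 lay above all wild-type samples and 2 below them, so that the SD was 0.014 in one group and 0.13 in the other; the difference in spread was not tested. The log2 fold change was 0.04 (SE 0.06, 95% interval −0.11 to 0.18; limma, adjusted p = 0.853).

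Among the MAPs that bind the polymer, MAP2 fell. MAP2 is the main MAP of dendrites and cell bodies and also anchors protein kinase A there. It read 8.63, 8.20, 8.34, 8.63 and 8.46 in wild-type samples 2, 8, 11, 14 and 17, and 7.74, 7.60, 7.79, 7.79 and 7.99 in SOD1(G93A) samples 3, 9, 12, 15 and 18. All SOD1(G93A) samples lay below all wild-type ones, with samples 18 and 8 nearest to each other. The mean went from 8.45 ± 0.19 to 7.78 ± 0.14 (SD, n = 5 each), a log2 fold change of −0.67 (SE 0.10, 95% interval −0.89 to −0.45), which left 62.7% of the wild-type level (limma, adjusted p = 0.00154). The value covers all transcripts of the gene, so the long dendritic forms and the short juvenile form of MAP2 were not told apart.

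MAP1A and MAP1B encode related heavy chains that are cut from a precursor and pair with light chains; MAP1B is made early in axon growth and MAP1A later, in mature neurons. MAP1A read 7.50, 7.42, 7.44, 7.55 and 7.56 in the wild-type samples and 7.27, 7.03, 7.44, 7.38 and 7.21 in the SOD1(G93A) samples. In 4 of 5 SOD1(G93A) samples it was below the wild-type range, and sample 12 overlapped it. The log2 fold change was −0.23 (SE 0.08, 95% interval −0.40 to −0.05), which was not called (limma, adjusted p = 0.130). Without adjustment, limma gave p = 0.0151 and an exact 2-sided permutation test gave p = 0.0159. The smallest p possible in the exact test is 0.00794, which STMN4 and MAP2 reached.

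MAP1B read 10.43, 10.15, 10.28, 10.51 and 10.38 in the wild-type samples and 10.32, 10.11, 10.32, 10.32 and 10.46 in the SOD1(G93A) samples. The ranges were nearly the same, and the log2 fold change was −0.04 (SE 0.08, 95% interval −0.23 to 0.14; limma, adjusted p = 0.863).

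MAP6, the STOP protein that makes microtubules resistant to cold, ranged from 6.41 to 6.54 in wild-type and from 6.40 to 6.57 in SOD1(G93A) samples. Its log2 fold change was 0.0044 (SE 0.05, 95% interval −0.11 to 0.12; limma, adjusted p = 0.982). DCX, doublecortin, which stiffens microtubules in migrating young neurons, ranged from 8.27 to 8.58 and from 8.28 to 8.54. Its log2 fold change was −0.05 (SE 0.07, 95% interval −0.21 to 0.12; limma, adjusted p = 0.835). For the genes that were not called, the intervals give the size of change that 5 arrays a group still allow.

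**Figure D2:**
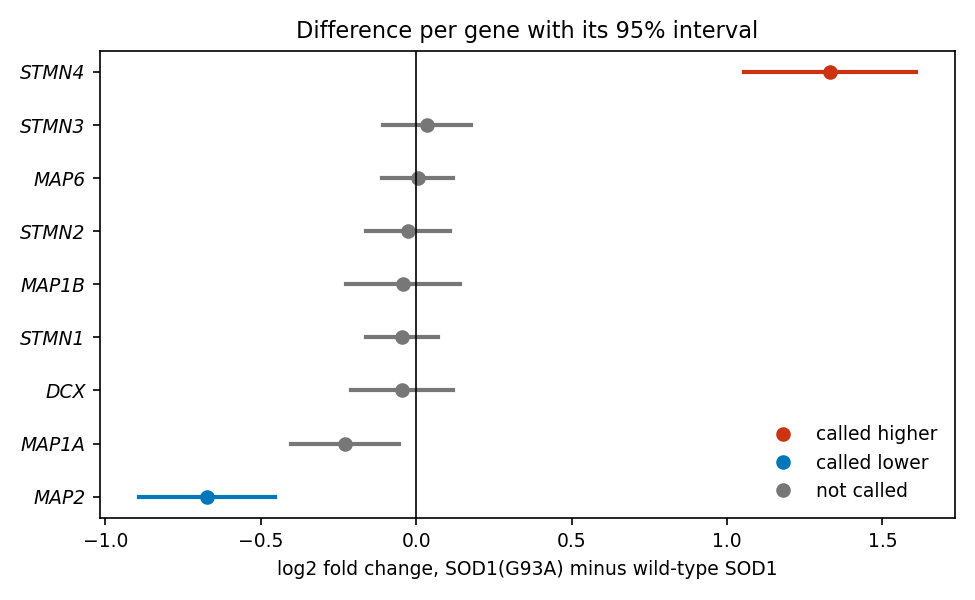
Log2 fold change of each measured gene (x axis, SOD1(G93A) minus wild-type SOD1; points) with its 95% interval from limma (bars), 5 arrays per group. STMN4 lies at 1.33 and MAP2 at −0.67; the intervals of STMN1, STMN2, STMN3, MAP1B, MAP6 and DCX cross 0, and that of MAP1A ends at −0.05 without a call over all probe sets.

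Wild-type sample 8 was the lowest of its group in 6 of the 9 genes, MAP1A, MAP1B, MAP2, MAP6, STMN3 and DCX, and in 23.9% of all named genes. In the 4 MAPs sample 11 was the next lowest, an order held by 4 of the 9 measured genes and by 5.82% of all named genes. Both the order and these 4 genes were picked after the values were seen, so the shares are no test. In the same 4 MAPs SOD1(G93A) sample 9 was the lowest of its group, as it was in STMN2; it was the lowest in 29.8% of all named genes. The wild-type low in STMN4 was also made by samples 8 and 11, while the lowest SOD1(G93A) samples of STMN4 were 12 and 9.

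Most genes next to STMN4 and MAP2 were not called. Among the 10 named genes on each side of STMN4 on chromosome 8, 2 were higher, CLU by 0.62 and EPHX2 by 0.42, 1 was lower, CDCA2 at −0.41, and 17 were not called. Around MAP2 on chromosome 2, 3 of 20 were higher, CPS1 by 1.72, ERBB4 by 1.69 and PTH2R by 0.34, and 0 were lower. Among all named genes 9.60% were called. Of the STMN4 neighbours 15 lay above 0 and 5 below (median 0.06), and of the MAP2 neighbours 10 and 10 (median 0.02). The called neighbours were named after their values were seen. MAP2 does not lie in the stretch of the same chromosome from SH3YL1 to ACYP2, in which 101 of 201 named genes fell and 2 rose, and neither does any other of the 9 genes.

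**Figure D3:**
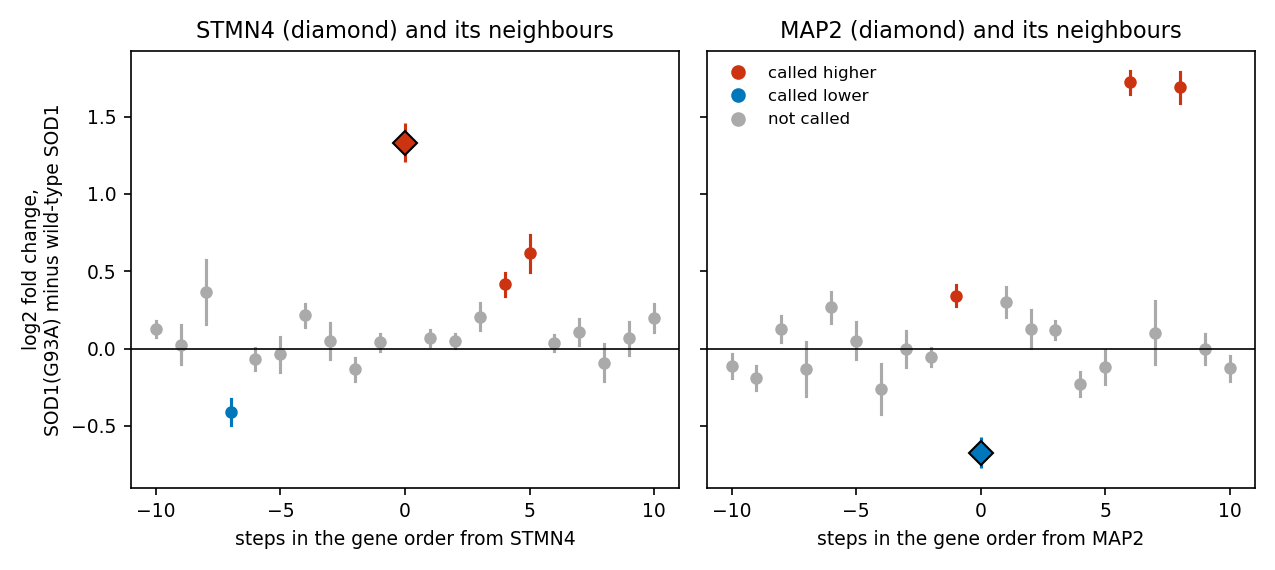
Log2 fold change ± SE (y axis, SOD1(G93A) minus wild-type SOD1) of STMN4 and MAP2 (diamonds) and the 10 nearest named genes on each side (points; x axis, steps in the gene order, not to scale in distance). Of the 20 neighbours, 17 were not called in either panel.

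Other proteins that bind the microtubule lattice were split, with 4 of 24 measured genes higher and 5 lower (median 0.0011). Of all named genes 4.03% were called higher and 5.57% lower, the shares to set beside this list and those below. The lists were chosen with earlier results of these data known, and no list was tested as a set. MTUS1, which encodes microtubule-associated angiotensin receptor interacting proteins, rose by 1.21 (SE 0.08). TPPP3, a tubulin polymerisation-promoting protein, rose by 0.73 (SE 0.09). MID1, a ubiquitin ligase that sits on microtubules, fell by 0.67 (SE 0.08), and EML4 fell by 0.54 (SE 0.07). The remaining called genes of this list were chosen for naming once their values were known: MAP4, the general MAP of non-neuronal cells, rose by 0.26 and MTCL1 by 0.25, and MAP7D2, MAP7 and TPPP fell by 0.37, 0.36 and 0.31. When SOD1(G93A) sample 9 or wild-type sample 2, 14 or 17 was left out, the count of falls was 3: TPPP was lost without any 1 of 7 arrays, MAP7D2 of 4 and MAP7 of 1 (limma, adjusted p up to 0.111, 0.0634 and 0.0507). Of the 20 neighbours of MTUS1, 7 were higher and 1 was lower.

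Of 24 measured genes for plus-end tracking proteins and other microtubule growth factors, 1 rose and 4 fell (median −0.05). NAV1, a neuron navigator, fell by 0.70 (SE 0.06), CLIP4 by 0.56 (SE 0.09), MAPRE3, the neuronal end-binding protein EB3, by 0.47 (SE 0.08), and SLAIN1 by 0.35 (SE 0.07). The 1 rise was TACC2, by 0.33, likewise named with its value known; leaving out SOD1(G93A) sample 3 or 18, or wild-type sample 11 or 14, ended its call (limma, adjusted p up to 0.0563). Of 15 severing, minus-end and depolymerising proteins 1 fell, SPAST, the severing enzyme spastin of hereditary spastic paraplegia, by 0.54 (SE 0.08).

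Enzymes that modify the tails of tubulin split evenly: of 19 measured, 2 rose and 2 fell (median 0.09). VASH1, which removes the terminal tyrosine of alpha-tubulin, rose by 0.99 (SE 0.06), and AGTPBP1, which trims polyglutamate chains, by 0.58 (SE 0.09). AGBL5, another deglutamylase, fell by 0.51 (SE 0.06), and VASH2, the relative of VASH1, by 0.32 (SE 0.05). Of 5 collapsin response mediator proteins, DPYSL3 rose by 0.33 (SE 0.07) and DPYSL5 fell by 0.53 (SE 0.08). The DPYSL3 call was lost without samples 17 and 18 together (limma, adjusted p = 0.0801).

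Kinases and phosphatases known to act on tau, MAP2 or stathmins were mostly not called. Of 35 measured, 1 rose and 1 fell (median −0.0092). CAMK4, a calcium-dependent kinase of STMN1, rose by 0.64 (SE 0.07). AURKB, a mitotic kinase of STMN1, fell by 0.29 (SE 0.08; limma, adjusted p = 0.0444), but leaving out 1 array ended the call for 9 of the 10 arrays (adjusted p up to 0.101). The other 33, among them the tau kinases CDK5, GSK3B and MARK1, did not pass the test.

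**Figure D4:**
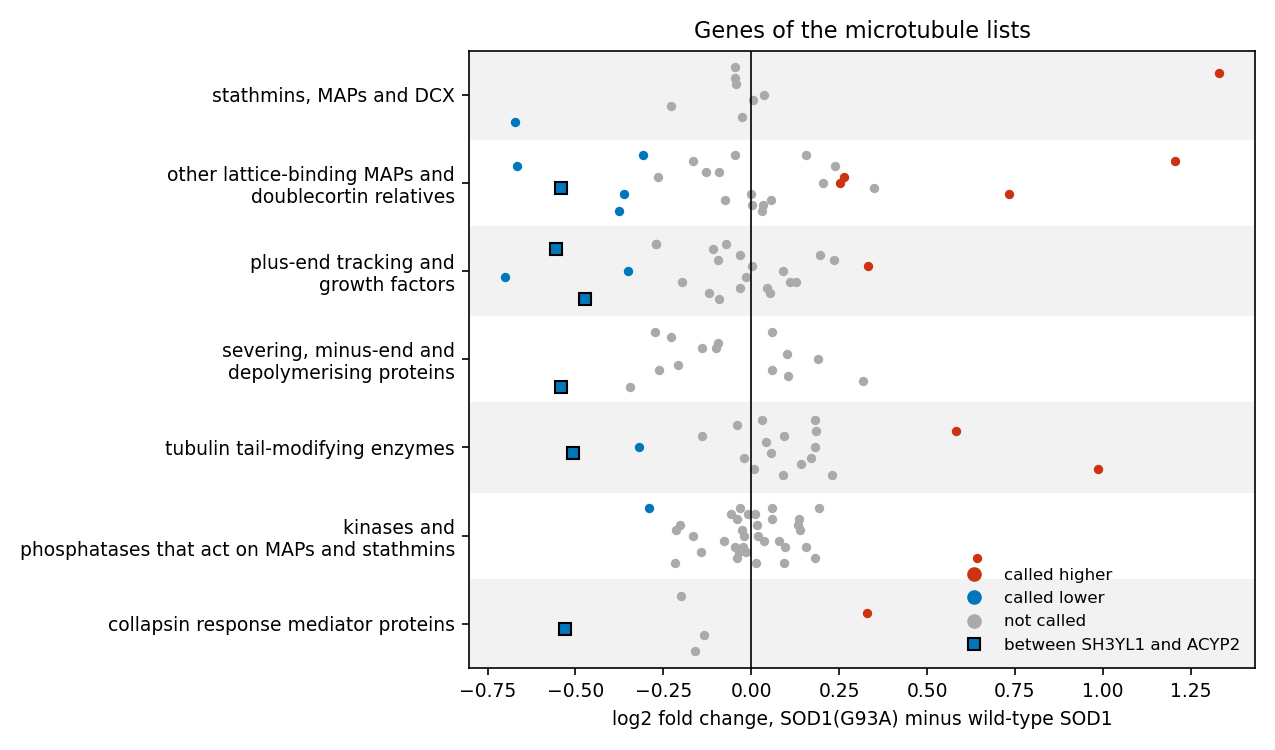
Log2 fold change (x axis, SOD1(G93A) minus wild-type SOD1) of the 9 measured genes and of each measured gene of 6 further lists (rows; vertical offsets within a row only separate the points), coloured by limma call. Squares mark genes that lie between SH3YL1 and ACYP2 in the gene order; all 6 are called lower.

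The further lists were also read by gene order. Of the 121 genes measured in these 6 lists, 9 rose and 14 fell. The 6 of them that lie between SH3YL1 and ACYP2, namely DPYSL5, MAPRE3, AGBL5, CLIP4, SPAST and EML4, all fell, with a median of −0.53. The median over all 201 named genes of that stretch was −0.37. Of the other 115, 9 rose and 8 fell, with a median of 0.0019. The ends of the stretch had been set from earlier results of these data, so its own fall is no independent result.

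Some markers of cell type and state, those of the line's own noradrenergic type among them, were also called, in both directions. Of 12 mesenchymal (S-type) markers 4 rose and 1 fell. The fall, in the transcription factor SNAI2, was the largest change of that list (−1.03), beside rises of 0.37 in VIM, 0.46 in FN1, 0.47 in CD44 and 0.66 in YAP1. The mean level of the 12 ran from 6.25 to 6.39 in wild-type and from 6.33 to 6.46 in SOD1(G93A) samples; PRRX1, IFI16 and ANXA1 lay below the lower quartile in both groups. Of 8 Schwann and glial markers 1 rose, with means of 3.97 to 4.04 and 3.99 to 4.17, and 0 lay above the array medians in both groups. The rise was in S100B, by 0.73 from 3.69 to 4.42, and its wild-type mean lay below the lower quartile. Of 10 noradrenergic markers 3 rose and 3 fell, with means of 8.96 to 9.17 and 9.08 to 9.31. The rises were CHGB by 1.40, CHGA by 1.06 and DDC by 0.28. The falls were −0.58 in GATA2, −0.44 in ALK and −0.38 in GATA3. ALK lies in the stretch of chromosome 2 from SH3YL1 to ACYP2. The part of these marker genes in the differences of STMN4 and MAP2 was not tested.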

How the data were processed

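Per the submitters' processing notes and labels, the authors used RMA in oneChannelGUI 1.6.5; the deposited table holds 1 log2 intensity per probe set (22011) and array (10), summarised by gene. RMA subtracts background, equalises the arrays' distributions and compresses differences of dim probes; the table has no detection calls, and a uniform shift would stay hidden. The sources used here name no genome build.

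Of the probe sets, 14432 had 1 gene symbol, 2408 several and 5171 none. Symbols were updated through gene identifiers from the RefSeq table of GRCh38.p14, used only for names and gene order (14208 of 14232 named genes placed). Groups were compared with lmFit and eBayes of limma 3.58.1 (R 4.3.3; 2-sided, no filter on level), adjusted by Benjamini-Hochberg across the whole table; the script was tested on simulated data. Each of the 9 measured genes and SOD1 was also tested by exact permutation, without adjustment. The genes and lists were chosen with earlier results of these data known. Named from the 7 lists outside the markers were the up to 4 called genes with the largest changes and no overlap between groups. Up to 19 alternatives were run per result, 1 of them (adjacent sample numbers as a block) chosen after seeing the data; MTUS1, MID1, CENPE, MAP7, TPPP and TACC2 fell under the level filter and had 18. The number of arrays limits the precision.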

Additional observations from a re-analysis of the deposited data

Results flagged for a closer look

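Of 74 groups of 5 samples checked, over 37 named genes, 3 held a sample far from the other 4 by Dixon's test at its 95% critical value; chance flags about 1 in 20 groups. TPPP3 read 9.09 in SOD1(G93A) sample 3, against 8.69 to 8.80 in the others of its group. EML4 read 10.38 in SOD1(G93A) sample 18, against 10.08 to 10.13. SLAIN1 read 7.72 in SOD1(G93A) sample 12, against 7.93 to 8.00. None of the 9 measured stathmins, MAPs and DCX, nor SOD1, had such a sample.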

How the results depend on the processing

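STMN4 and MAP2 kept their direction and call under all 19 alternatives. The STMN4 log2 fold change ran from 1.26 to 1.40 (limma, adjusted p from 5.85e-06 to 0.000537) and that of MAP2 from −0.74 to −0.63 (adjusted p from 0.000374 to 0.00574). MAP1A was called under none (adjusted p from 0.0690 to 0.342). The median over the 9 genes ran from −0.06 to 0.0050. Genes near 0 changed sign without being called: MAP6 was −0.0033 with arrays centred on their median, −0.0087 with quantile normalization repeated, and from −0.017 to 0.024 with single arrays left out. Over the same omissions MAP1B ran from −0.093 to 0.0050 and STMN2 from −0.050 to 0.021, above 0 only without SOD1(G93A) sample 9. With only probe sets above the median mean level, 38 were higher and 54 lower with the 2-fold threshold, against 81 and 111 over all, as fewer were tested. The labels give the groups no shared sample number, but the numbers run in adjacent pairs (2 and 3, 8 and 9, and so on). The deviations of adjacent samples from their group means, over all named genes, correlated at −0.04 to 0.25, highest for 8 and 9. The best match of wild-type samples 8 and 11 was the adjacent sample, and that of 2, 14 and 17 was not. The planned test used no pairs, and the labels do not say whether adjacent numbers are pairs. With adjacency as a replicate block, an alternative chosen after seeing the data, 512 probe sets were higher and 701 lower, against 713 and 930. STMN4 and MAP2 were still called (adjusted p = 0.000225 and 0.00574), MAP1A was not (adjusted p = 0.159), and AURKB, DPYSL3, MAP7D2 and TPPP were no longer called (adjusted p = 0.0989, 0.0556, 0.0574 and 0.102). Differences of dim probes are compressed, and no measured gene of the 9 lay below the lower quartile. STMN4 in wild-type samples 8 and 11, at 6.26 and 6.22, lay near the array medians of 6.26 to 6.34. How far compression affects these genes was not tested.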
